A study of Arabidopsis thaliana with 72 samples.

Results

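The comparison set roots of control Arabidopsis thaliana plants after 48 and 72 h in a pressure chamber at normal pressure (called late here) against roots after 6 and 12 h in the same kind of chamber (called early). All root arrays at 97 kPa of these 4 times entered, which gave 6 late and 6 early arrays, 12 of the 72 arrays of the series. The plants were of the ecotype Wassilewskija, a laboratory accession grown here on upright plates of 0.5x MS medium, and were 10 days old when moved to the chambers. The gas at 97 kPa held 21 kPa oxygen and 0.05 kPa carbon dioxide with nitrogen as the balance, and the light was constant. The sample descriptions give 101 kPa for the same arrays, and 97 kPa is the value of their characteristics. Each of the 4 groups had 3 replicates, 1 tube of about 12 pooled plants from each of 3 separate chambers run at the same time. Roots at 10 kPa with 2.1 kPa oxygen and shoots at 97 kPa, each with 12 arrays at the same 4 times, served for comparison. The late plants were also older, so plant age and time in the chamber cannot be told apart in any of these differences. Each array reports the steady-state amount of transcripts in a whole root system, so fewer cells of a type and less RNA per cell cannot be told apart.

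A young root grows from a tip where cells divide, then elongate, and then mature into root hairs, a barrier layer called the endodermis, and vascular strands. Growth at the tip draws on ribosomes, histones, tubulin and sugar-fuelled respiration, and the sugar comes from the shoot through the phloem. Roots kept in the light can also make chlorophyll and some of the photosynthetic machinery, which roots in soil hardly express. A set of genes responds in nearly every Arabidopsis cell type when oxygen runs short, under the control of ethylene response factors that are stable only at low oxygen.

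The tissue label was checked first. All 16 probe sets of the photosynthesis list had a lower signal in every root array than in any shoot array. EXPA7 and EXPA18, expansins that loosen the wall of root hair cells and are the 2 of 20 listed root markers with a probe set named here, had early signals of 247 to 481 and 344 to 582 in roots. In the early shoot arrays at 97 kPa they had 4.28 to 54.8 and 6.54 to 12.4. Markers that define the endodermis or the stem cell niche, such as CASP1 and WOX5, have no probe set named here and were not analysed.

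Late and early roots differed at many genes. Of 15288 probe sets tested, 2880 (18.8%) changed at an adjusted p below 0.05 by limma, a linear model fitted across all probe sets. Of these, 1391 (9.1%) rose and 1489 (9.74%) fell, and a gene is said below to have risen or fallen only where it passed that threshold. Counts within a gene list below stand against these shares. A count near them is no result about the list. Most changes were small, since 369 of the 2880 reached 2-fold, 223 of them upward and 146 downward. The 6 late values lay wholly beyond the 6 early values at 1246 probe sets (8.15%), upward at 517 (3.38%) and downward at 729 (4.77%). The median change over all tested probe sets was 0.02 on the log2 scale.

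The late arrays were less alike than the early ones. Pearson correlations across probe sets ran from 0.906 to 0.957 between early arrays and from 0.858 to 0.906 between late arrays, and those between an early and a late array ran from 0.844 to 0.913. The first principal component held 23.1% of the variance and placed the 6 early arrays apart from the 6 late ones. The array of 72 h replicate 2 stood farthest out and had the lowest mean correlation with the other 11 arrays, 0.862. Its array number also lies in another run than those of the other 11. Among those, the early arrays are numbered 12426 to 12438 and the late ones 12440 to 12448, so number order goes with the comparison. Without 72 h replicate 2, 2237 of the 2876 called probe sets still tested kept their call and none changed sign.

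Signals of RNA quality moved with the comparison. The ratio of 3′ to 5′ signal of the control gene GAPDH, which rises when transcripts are copied or preserved less completely, was 99.3 to 179 in the early arrays and 191 to 1312 in the late ones, without overlap. The same ratio of actin was 57.3 to 134 early and 40.3 to 86.8 late, and that of ubiquitin was 6.6 to 9.39 early and 7.72 to 10.7 late. With the mean log2 ratio of the 3 control genes of each array added to the model, 1 of the 2880 calls held, while 31 changed sign. In that fit the changes of the 2880 kept a median 0.839 of their size and their standard errors grew to a median 1.96 times. With the ratio of 1 control gene in the model, 228 of the 2880 calls held for GAPDH, 1462 for ubiquitin and 1925 for actin. That limit applies to the calls below.

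**Figure D1:**
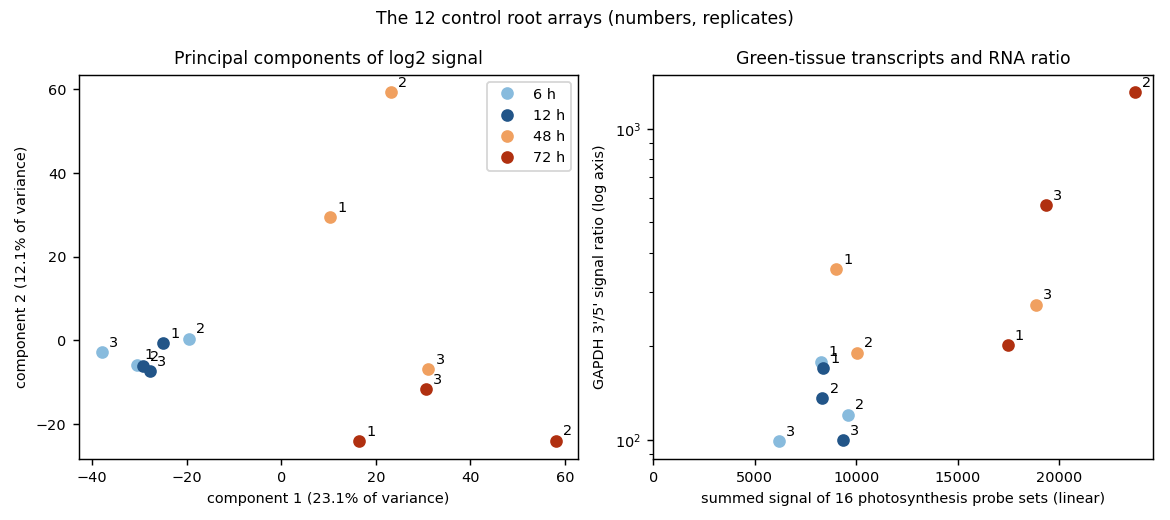
The 12 control root arrays, coloured by time and numbered by replicate. The left panel plots the first 2 principal components of log2 signal, which hold 23.1% and 12.1% of the variance. The right panel plots the summed signal of 16 photosynthesis probe sets (linear) against the GAPDH 3′/5′ ratio (log axis). The early arrays lie together in both panels, the late ones are spread out, and 72 h replicate 2 has the highest ratio, 1312.

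The naming rule took the 15 largest increases and the 15 largest decreases among called genes whose 6 late values all lay beyond the 6 early ones, so the lack of overlap in these 30 is not a result. AT1G67470 had early values of 10.9, 80.2 and 168 (lowest, median and highest of 6) and late values of 179.6, 256 and 314, a log2 change of 1.73 ± 0.38 (SE, adjusted p = 0.0036). AT2G22510, a more abundant transcript, went from 979.7, 1441 and 2121 to 2831, 4571 and 5331, a change of 1.61 ± 0.17 (SE, adjusted p = 1.2e-05). AT5G46780 went from 1630.2, 1931 and 2231 to 3773, 4673 and 5369, a change of 1.23 ± 0.12 (SE, adjusted p = 6.6e-06). The tables used here give these 3 loci no name, and among the 15 increases only PRK, ATL8 and nad1 carry one. ATL8, a RING-finger protein of the ATL family of ubiquitin ligases, rose by 1.27 ± 0.17 (SE, adjusted p = 6.8e-05). The probe set taken of nad1, a mitochondrially encoded subunit of respiratory complex I, rose by 1.28 ± 0.37 (SE, adjusted p = 0.02). More than 1 tested probe set carries the name nad1. Over these, alternatives without ratio covariates gave changes from 0.46 to 1.48, with adjusted p by limma up to 0.55. The other members of the 15 were AT1G34420, AT2G42220, AT1G27610, AT5G19940, AT2G40200, AT1G22430, AT3G52070, AT2G39320 and AT1G33055, with changes between 1.23 and 1.49.

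None of the 15 decreases so taken carries a name in the tables used here, and several concerned abundant transcripts. AT2G47610 had early values of 5657, 7548 and 8257 and late values of 2312, 2934 and 3793, a log2 change of -1.28 ± 0.12 (SE, adjusted p = 6.6e-06). AT2G20450 went from 3589, 3929.7 and 4893 to 1385, 1635 and 1886, a change of -1.32 ± 0.11 (SE, adjusted p = 5.6e-06). The highest late array lay below the lowest early one in both, as the naming rule requires. AT3G01190 fell by 1.34 ± 0.14 (SE, adjusted p = 9.7e-06), and its late values were lower at 72 h (382, 534 and 511) than at 48 h (874, 773 and 618). AT1G23280 had the largest change of the 15, -1.89 ± 0.44 (SE, adjusted p = 0.0052), from early values of 199, 276 and 401. The other 11 were AT5G28740, AT3G58660, AT5G10130, AT1G52070, AT2G38870, AT3G15357, AT4G28440, AT1G52050, AT4G24830, AT1G33750 and AT5G14520, with changes between -1.44 and -1.2.

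**Figure D2:**
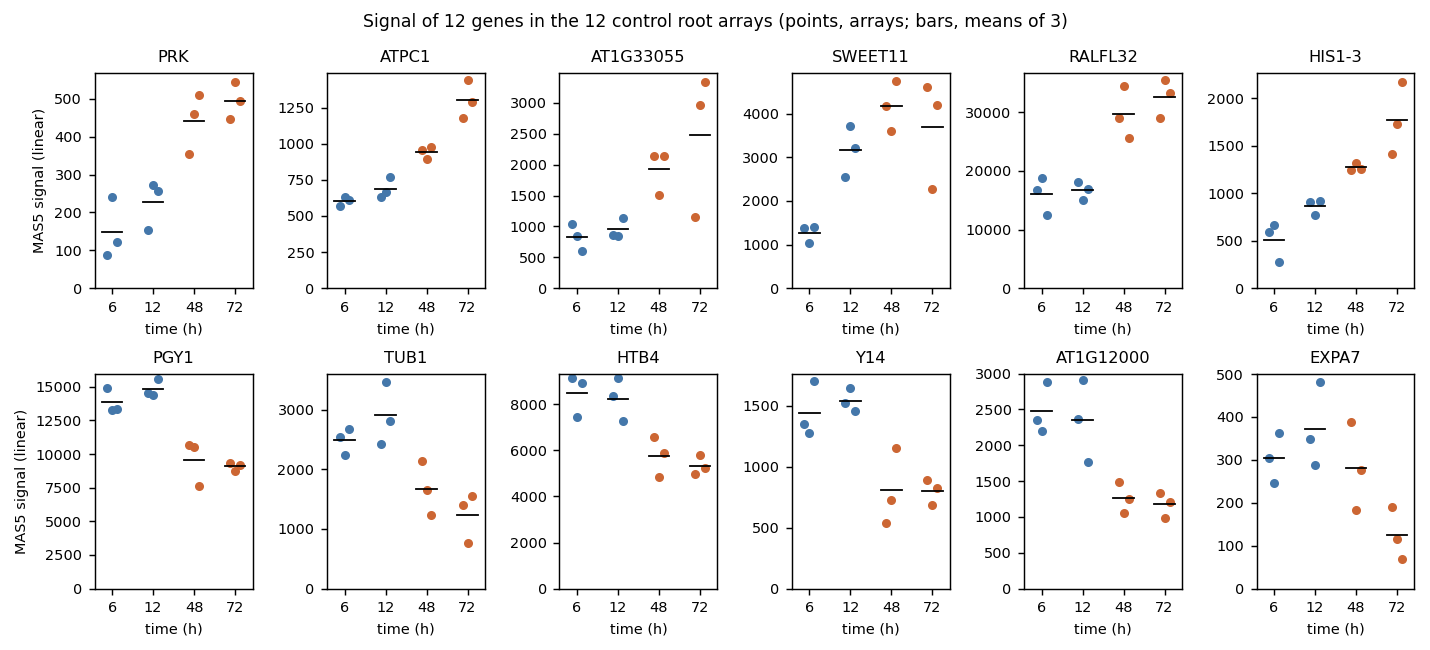
Linear MAS5 signal of 12 genes in each control root array at 6, 12, 48 and 72 h, with points for arrays and bars for means of 3. The upper row shows genes that rose, among them PRK and RALFL32, and the lower row genes that fell, among them PGY1, TUB1 and EXPA7. RALFL32 and PGY1 separate early from late arrays fully, while SWEET11 and EXPA7 overlap.

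Genes of the photosynthetic machinery rose together. Of the 16 tested probe sets of the photosynthesis list, 12 rose and 1 fell, and the median log2 change was 0.96, against 9.1% risen and a median of 0.02 over all tested. PRK, the phosphoribulokinase of the Calvin cycle, had signals of 88, 239.6 and 121 at 6 h, 153, 272 and 256 at 12 h, 354, 461 and 509.6 at 48 h and 447, 545 and 494 at 72 h. All 6 late values lay above all early ones, and the change was 1.37 ± 0.23 (SE, adjusted p = 5.0e-04). ATPC1, the gamma subunit of the chloroplast ATP synthase, rose from 571, 629 and 768 to 894, 1077 and 1444, a change of 0.77 ± 0.12 (SE, adjusted p = 1.7e-04). LHCB4.3, an antenna protein of photosystem II, rose from 215, 260.0 and 407 to 415, 524 and 691, a change of 0.95 ± 0.19 (SE, adjusted p = 0.0015). These 3 were the members that rose with no overlap between early and late arrays.

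Other members were high at 72 h and in 48 h replicate 3, and lower in the other 48 h arrays. PSAE-1, a subunit of photosystem I, had 677, 1041 and 2507 at 48 h and 2572, 4823 and 2796 at 72 h, against early values of 511, 757 and 1041. Replicates 1 and 2 of 48 h lay within the early range, and the overall change was 1.39 ± 0.25 (SE, adjusted p = 6.7e-04). PORB, an enzyme of chlorophyll synthesis, had 224, 294 and 709 at 48 h and 594, 657 and 934 at 72 h, with early values of 139, 236 and 368 and a change of 1.17 ± 0.27 (SE, adjusted p = 0.0052). PSBW, a small subunit of photosystem II, changed by 1.11, LHCB4.1, a further antenna protein, by 1.1, and the Calvin cycle enzyme SBPASE by 0.75. HPR, of photorespiration, changed by 0.98 and CHLM, of chlorophyll synthesis, by 0.58. RCA, which activates Rubisco, changed by 0.38, GSA1 by 0.22 and LHCB4.2 by 1.29, and these 3 did not pass the test. The member that fell was AT1G56190, with a change of -0.51. Without the 72 h arrays 4 of the 16 rose, and without the 48 h arrays 12 did. With the actin ratio as covariate 12 rose, with the ubiquitin ratio 4, and with the GAPDH ratio none.

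Summed over the 16 probe sets, photosynthesis signal was 6181 to 9573 in the early root arrays and 9014 to 23721 in the late ones. The 48 h replicates 1 and 2 had sums of 9014 and 10029, close to the early arrays, while 48 h replicate 3 and the 3 arrays of 72 h had sums from 17458 to 23721. The late root sums were 3.52% to 9.26% of the median late shoot sum, and the early ones had a median of 3.23% of the early shoot median. How much of the rise is shoot tissue carried over at dissection and how much is expression in root cells was not tested. STOMAGEN, a secreted peptide of leaf mesophyll that promotes stomata, also rose, from 29.4, 81.5 and 232 to 162, 364 and 687, with a change of 1.94 ± 0.37 (SE, adjusted p = 0.0012). Its mean signal in late shoots was 4656.

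The next nuclear genes of chloroplast proteins were chosen for their values. TROL, a thylakoid protein that binds ferredoxin-NADP reductase, rose by 1.08 ± 0.25 (SE, adjusted p = 0.0052). LIL3:2, a light-harvesting-like protein tied to chlorophyll synthesis, rose by 0.85 ± 0.18 (SE, adjusted p = 0.0025), with late values of 556, 939.7 and 1098 against 308, 492 and 795 early. CYTC6A, a cytochrome c6-like protein of the thylakoid lumen, rose by 0.77 ± 0.14 (SE, adjusted p = 7.8e-04) without overlap. Transcripts of the plastid genome did not follow as a group. Of 46 tested probe sets of photosynthesis and other genes of that genome, 5 rose and 1 fell, with a median of 0.18. psbM and ndhD rose, by 0.68 and 0.64, and atpB fell, with a change of -0.78. The call of atpB was lost in 11 of 27 alternatives without ratio covariates. Of the 14 plastid ribosomal protein probe sets 3 rose, with a median of 0.03, and of 15 of the mitochondrial genome 2 rose, with a median of 0.36. Such transcripts largely lack the poly(A) tails that the labelling starts from, so their signals may not track their amounts.

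Part of the core low-oxygen genes rose in roots that were kept at normal oxygen. Of 23 tested probe sets of that list 11 rose and none fell, with a median log2 change of 0.52. AT3G29970 had 807, 284 and 276 at 6 h, 149.9, 59 and 88.8 at 12 h, 1267, 496 and 979.7 at 48 h and 361, 970.2 and 1641 at 72 h. Values at 6 h overlapped the late ones and values at 12 h lay below all of them, and the change was 2.06 ± 0.35 (SE, adjusted p = 4.4e-04). AT1G33055 rose from 604, 859 and 1143 to 1152, 2137 and 3342, a change of 1.23 ± 0.21 (SE, adjusted p = 5.3e-04), and AT1G19530 from 356, 829 and 1071 to 1187, 1625 and 2649.9, a change of 1.2 ± 0.16 (SE, adjusted p = 6.6e-05). Early and late arrays of AT1G19530 did not overlap either. AT4G10270 rose by 1.29 ± 0.22 (SE, adjusted p = 5.5e-04), with 1 of 6 late arrays inside the early range. The calmodulin-like CML38 had a change of 0.48 and PDC2, a pyruvate decarboxylase of fermentation, of -0.02, and neither passed the test. AT2G41730 had the lowest value of the list, -1.05 (adjusted p = 0.1). Without 72 h replicate 2, 8 of the 23 rose, and with the GAPDH ratio as covariate none did. The fermentation enzyme ADH1 has no named probe set here and was not analysed.

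Some sugar transporters also rose. Of 9 tested members of the list of starch, sucrose and sugar transport, 3 rose, all of them SWEETs, membrane channels that let sugars leave cells or vacuoles. SWEET11, a sucrose exporter best known from leaf phloem, had 1373, 1025 and 1392 at 6 h and 2552, 3723 and 3214 at 12 h. At 48 h it had 4179.9, 3607 and 4736 and at 72 h 4613, 2269.8 and 4198, a change of 0.95 ± 0.16 (SE, adjusted p = 3.8e-04). The 6 h arrays were lowest and the 12 h arrays overlapped the late ones. SWEET3 rose by 0.62 and SWEET17, a fructose channel of the vacuole, by 0.48. Their calls were lost in 5 and 8 of 27 alternatives without ratio covariates. Of 10 tested genes induced by sugar starvation 2 rose, AT2G32150 by 0.57 and AKINBETA1, a regulatory subunit of the energy-sensing kinase SnRK1, by 0.47. The call of AT2G32150 was lost in 13 of 27 alternatives without ratio covariates.

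Of 8 tested senescence genes 4 rose and none fell, with a median of 0.52, and the number was 2 when 6 h replicate 1 or 3, 12 h replicate 3, or 48 h replicate 1 or 2 was left out. STR18, a sulfurtransferase, rose from 5968, 9309.7 and 11069.9 to 13348, 15088 and 17817, a change of 0.78 ± 0.13 (SE, adjusted p = 3.1e-04), without overlap. Of 6 tested WRKY factors, transcription factors of defence and ageing, 4 rose, against 9.1% of all tested probe sets. That number was 1 without 6 h replicate 1, and 2 when 6 h replicate 3, 12 h replicate 1 or 2, 48 h replicate 3, or 72 h replicate 1 or 2 was left out. It was 1 without the variance trend or with the ubiquitin ratio as covariate and 2 with the actin ratio. WRKY53, which promotes leaf senescence, went from 218, 254 and 321 to 371, 445 and 565, a change of 0.80 ± 0.18 (SE, adjusted p = 0.0036), again without overlap. WRKY47 rose by 0.67, ZAP1 by 0.63 and WRKY20 by 0.51, calls lost in 10, 11 and 12 of 27 alternatives without ratio covariates. STZ, chosen for its values, is a zinc-finger repressor of stress responses and rose by 1.09 ± 0.19 (SE, adjusted p = 5.3e-04). GRX480, a glutaredoxin induced by salicylate, rose by 1.43 ± 0.44 (SE, adjusted p = 0.031), with 2 of 6 late arrays inside the early range. Its call was lost in 15 of 26 alternatives without ratio covariates. Of 11 tested genes of salicylate and pathogen defence 1 rose, WRKY53, and 1 fell, AT5G64100 (-0.93). Of 8 tested ATG genes of autophagy 2 rose, ATG8B by 0.69 and ATG8D by 0.39.

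Some small secreted peptides rose. RALFL32, of the RALF family of peptides that act on growth and cell wall sensing, went from 12466, 16750.3 and 18835 to 25664, 31187 and 35464, a change of 0.94 ± 0.11 (SE, adjusted p = 2.4e-05). CLE41, which acts from the phloem to keep vascular stem cells dividing, went from 440.4, 499.7 and 584 to 723, 1014 and 1278, a change of 0.94 ± 0.15 (SE, adjusted p = 2.9e-04). Neither overlapped between early and late arrays. CLE44, which encodes the same peptide as CLE41, rose by 0.81 ± 0.25 (SE, adjusted p = 0.027) with overlap, a call lost in 10 of 27 alternatives without ratio covariates. These were the 3 of 10 tested CLE and RALF genes that rose, and none fell. ARL, an ARGOS-like protein that promotes organ growth through cell expansion, went from 933, 1242 and 1467 to 2001, 2487 and 2951, a change of 1.03 ± 0.14 (SE, adjusted p = 5.8e-05).

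Genes of the maturing root surface and wall moved both ways. Of 17 tested root hair genes 4 fell and none rose, with a median of -0.31, against 9.74% fallen over all tested. EXPA7 had 388, 182 and 275 at 48 h and 191, 116 and 68.5 at 72 h against early values of 247, 326 and 481, so only 72 h lay below the early range as a group, and the change was -0.87 ± 0.26 (SE, adjusted p = 0.025). EXPA18 changed by -0.97 ± 0.28 (SE, adjusted p = 0.018). The calls of EXPA7 and EXPA18 were lost in 8 and 6 of 27 alternatives without ratio covariates. AT4G26010 had the largest fall of the list, -1.28 ± 0.19 (SE, adjusted p = 1.3e-04), and AT5G04960 fell by 0.83 ± 0.15 (SE, adjusted p = 7.9e-04) without overlap. Without the 72 h arrays 1 of the 17 fell and the median was 0.07. In contrast EXLA3 and EXLA1, expansin-like proteins of the cell wall, rose by 1.75 ± 0.28 (SE, adjusted p = 3.4e-04) and 0.94 ± 0.17 (SE, adjusted p = 9.2e-04). EXLA3 had 27.3, 99.6 and 66.6 at 12 h, lower than the 194, 358 and 400.1 at 6 h. Over alternatives without ratio covariates its change ran from 0.64 to 2.87, and its call was lost in 1 of 27. Of 15 tested expansins 2 rose, 2 fell and 11 did not pass. Over all tested probe sets 9.1% rose and 9.74% fell, so that count is no result about expansins.

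Of 8 tested genes of the endodermis and its suberin barrier 3 rose and 1 fell. AT2G18370 rose by 0.74, AT5G37690 by 0.69 and AT2G48130 by 0.63, and AT5G60520 fell, with a change of -0.79. FACT, which joins caffeic acid to fatty alcohols to make waxes that accompany suberin in roots, rose from 1307, 1441 and 2310.3 to 2462, 3262 and 3987, a change of 1.04 ± 0.15 (SE, adjusted p = 1.4e-04). CCR2, a cinnamoyl-CoA reductase of lignin synthesis, rose by 0.99 ± 0.26 (SE, adjusted p = 0.012) without overlap. It was the 1 of 7 tested secondary wall genes that passed, where 9.1% of all tested probe sets rose. The SKU5 family, copper-oxidase-like proteins of the cell surface named for a gene of directed root growth, fell in all 3 tested members. sks15 had 334, 298 and 241 at 48 h and 214, 127 and 139 at 72 h against early values of 364, 466 and 549.5, a change of -1.07 ± 0.19 (SE, adjusted p = 6.3e-04). sks16 changed by -0.86 and SKU5 itself by -0.60. PYK10, the abundant root beta-glucosidase stored in endoplasmic reticulum bodies, rose from 25745, 27515 and 33825 to 36274, 37719 and 41292, a change of 0.45 ± 0.09 (SE, adjusted p = 0.0017) and no overlap.

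Several genes that build proteins and RNA fell. PGY1, a protein of the large ribosomal subunit, had 14882, 13303 and 13375 at 6 h, 14525, 14386 and 15592 at 12 h, 10641, 10489 and 7652 at 48 h and 9365, 8759.7 and 9221 at 72 h. The highest late array lay below the lowest early one, and the change was -0.62 ± 0.09 (SE, adjusted p = 1.8e-04). The ribosomal protein family, read from symbols and synonyms, holds only 1 more tested probe set, AT1G77750, with the synonym RPS13. Genes listed by locus code without a matching synonym are not counted in it. Other ribosomal protein genes may therefore be among the loci without a name. AT1G77750 changed by -0.40 (adjusted p = 0.044), a call lost in 17 of 27 alternatives. The tables do not say in which ribosome its protein serves. Y14, a core protein of the exon junction complex that marks spliced mRNA, went from 1272, 1487 and 1706 to 539, 773 and 1151, a change of -0.92 ± 0.16 (SE, adjusted p = 4.9e-04). PRH75, a nucleolar RNA helicase, fell by 0.78 ± 0.14 (SE, adjusted p = 9.0e-04), and the translation initiation helicase EIF4A-2 fell by 0.47 ± 0.10 (SE, adjusted p = 0.0027). Of 12 tested subunits of the nuclear RNA polymerases 3 fell and none rose, NRPB6A (-0.56), NRPB6B (-0.44) and NRPB9B (-0.42). Of 6 tested LSM proteins, which guide mRNA decapping and splicing, 3 fell, LSM1A (-0.61), LSM1B (-0.58) and LSM6B (-0.45). Over all tested probe sets 9.74% fell. The polymerase and LSM families were formed after values were seen, and Y14, PRH75 and EIF4A-2 were picked after them. They therefore only describe these arrays.

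Some folding factors fell too. Cpn60beta3, a subunit of the chloroplast chaperonin, went from 1060.1, 1652 and 2039 to 544, 804 and 1017, a change of -1.01 ± 0.15 (SE, adjusted p = 1.4e-04), while the photosynthesis transcripts rose. Cpn60beta2 fell too, with a change of -0.57, and Cpn60beta4 had 0.56, which did not pass. Of 13 tested genes of heat and folding stress 3 fell, against 9.74% of all tested probe sets. These were AT3G09440 (-0.69), the endoplasmic reticulum co-chaperone ATERDJ3B (-0.56) and the calreticulin CRT1b (-0.53). SQN, a cyclophilin co-chaperone of HSP90, fell by 1.41 ± 0.43 (SE, adjusted p = 0.025), with a wide late spread of 20.3, 143 and 203. Its call was lost in 9 of 26 alternatives without ratio covariates.

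Of 6 tested histones 3 fell and 1 rose. HTB4, a histone H2B, went from 7258, 8638 and 9128 to 4849, 5517 and 6602, a change of -0.59 ± 0.10 (SE, adjusted p = 5.0e-04). HTB1 and HTB2, also H2B genes, changed by -0.50 and -0.65, and in none of the 3 did early and late arrays overlap. HTB11 (0.25) and the centromeric histone HTR12 (0.08) did not pass. HIS1-3, a linker histone known to be induced by drought, went the other way, from 273, 716 and 919 to 1247, 1364 and 2166, a change of 1.2 ± 0.18 (SE, adjusted p = 1.5e-04). Of 7 tested tubulins 3 fell, TUB1, TUA6 and TUB9, and 1 did so without 6 h replicate 3. TUB1, a beta-tubulin, went from 2243, 2614 and 3475 to 769.6, 1474 and 2142, a change of -0.94 ± 0.17 (SE, adjusted p = 6.4e-04). TUA6 changed by -0.40 and TUB9 by -0.40, and the call of TUB9 was lost in 13 of 27 alternatives without ratio covariates. TPLATE, a subunit of an endocytic complex found at the forming cell plate, fell by 0.84 ± 0.14 (SE, adjusted p = 4.8e-04) without overlap. Of 10 tested cell division genes 1 rose, HIS1-3, and 2 fell, HTB1 and the ubiquitin-conjugating enzyme UBC20 (-0.36). Over all tested probe sets 9.1% rose and 9.74% fell. The mitotic kinases AUR1 (-0.28), AUR2 (-0.06) and AUR3 (-0.53) did not pass.

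Enzymes of sugar breakdown and respiration fell as well. Of 7 tested glycolysis probe sets 4 fell and none rose, with a median of -0.55. AT1G12000 went from 1770.3, 2361 and 2905 to 987, 1229 and 1485, a change of -0.97 ± 0.14 (SE, adjusted p = 9.1e-05), and AT1G20950 from 2331, 2785 and 3157 to 929, 1448 and 2083, a change of -0.92 ± 0.13 (SE, adjusted p = 1.4e-04). GAPC2, a cytosolic glyceraldehyde phosphate dehydrogenase, fell by 0.57 ± 0.13 (SE, adjusted p = 0.0048), and the triose phosphate isomerase TPI fell by 0.52 ± 0.12 (SE, adjusted p = 0.0048). The first 3 did not overlap between early and late arrays. The control ratio itself comes from GAPDH, an enzyme of this pathway. Without 72 h replicate 2, 4 of the 7 fell, and with the GAPDH ratio as covariate 1 did. All 3 named succinate dehydrogenase subunits that fell, SDH1-1 (-0.51), SDH2-1 (-0.45) and SDH2-2 (-0.44), belong to the enzyme that links the citric acid cycle to respiration, and SDH1-2 (-0.79) did not pass. MPPBETA, which cuts import signals off mitochondrial proteins, went from 3422, 4053 and 5054 to 2054, 2726 and 3223, a change of -0.64 ± 0.12 (SE, adjusted p = 9.8e-04). CYTC-2, a cytochrome c, and IDH-V, an isocitrate dehydrogenase subunit, changed by smaller amounts, -0.43 ± 0.12 (SE, adjusted p = 0.012) and -0.35 ± 0.12 (SE, adjusted p = 0.046). Ratio covariates aside, the calls of IDH-V and SDH1-1 were lost in 19 and 11 of 27 alternatives. The succinate dehydrogenase family was formed after values were seen, and MPPBETA, CYTC-2 and IDH-V were picked after them.

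Detoxification genes moved both ways. Of 11 tested glutathione transferases 3 fell and 1 rose, against 9.74% fallen and 9.1% risen over all tested probe sets. Their median was 0.12, and 7 of the 11 had a positive change. Of 8 tested cytochrome P450 genes 2 rose and none fell, with a median of 0.58. Of 19 tested UDP-sugar transferases 1 fell and none rose. GSTU25 had 519, 647 and 579 at 6 h, 386, 347 and 195 at 12 h and late values of 80.4, 196 and 282, a change of -1.26 ± 0.27 (SE, adjusted p = 0.0028). GSTU28 changed by -0.99 and GSTU26 by -0.72, and GSTU18 rose by 0.94. GR1, a glutathione reductase, fell by 0.73 ± 0.16 (SE, adjusted p = 0.003) without overlap. DRT100, named for a role in DNA damage tolerance, went from 2296, 2625 and 2865 to 853, 1414 and 1713, a change of -0.99 ± 0.15 (SE, adjusted p = 2.1e-04).

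**Figure D3:**
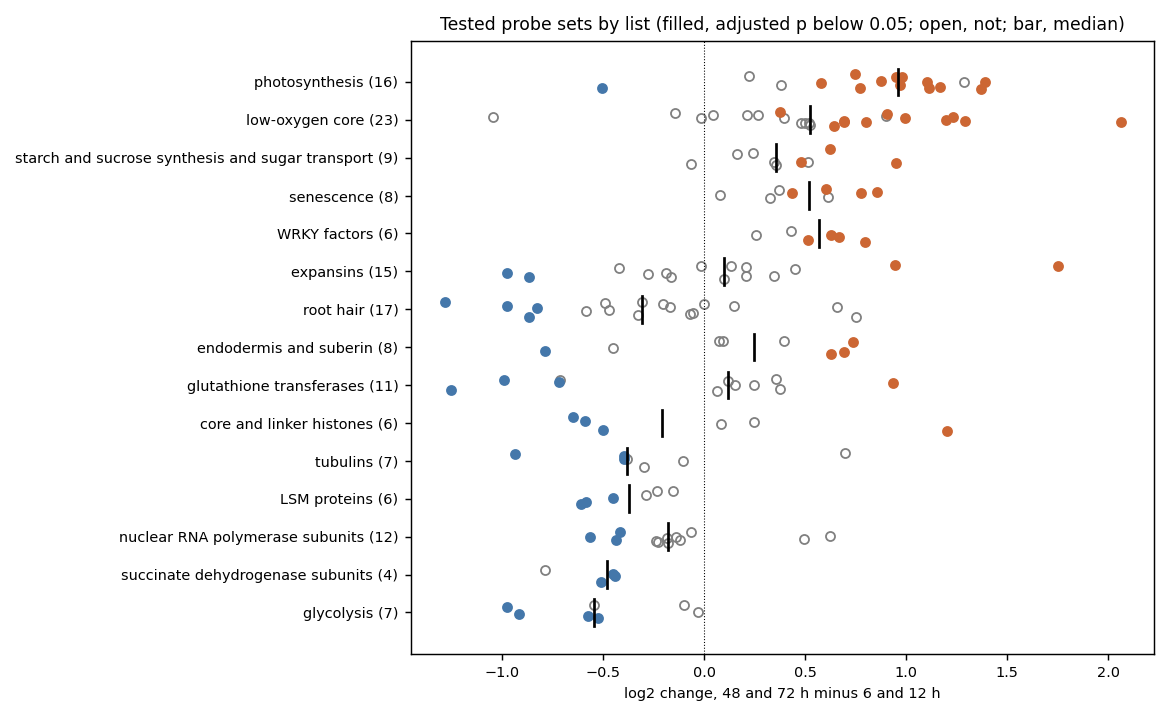
Log2 change from early to late of each tested probe set in 15 gene lists, with the number tested beside each name. Filled points passed an adjusted p below 0.05 (orange risen, blue fallen), open points did not, and bars are medians. The photosynthesis median is 0.96 and the glycolysis median -0.55.

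Gene families read from symbols gave further calls. Over all tested probe sets 9.1% rose and 9.74% fell, and where a family's share lies near that, its count is no result about the family. Of 17 tested trichome birefringence-like genes, which acetylate cell wall polysaccharides, 5 rose, from TBL38 at 0.44 to TBL30 at 0.87. Of 23 subtilases and serine carboxypeptidases, secreted or vacuolar proteases and their relatives, 4 rose, among them SBT3.12 by 1.2 and ATSBT5.2 by 0.83. BGLU40 and BGLU46, beta-glucosidases, rose by 0.81 and 0.67, which with PYK10 made 3 of 12. Of 8 aldehyde dehydrogenases 3 rose and 1 fell, with ALDH11A3 at 0.84, ALDH6B2 at 0.58 and ALDH2C4 at 0.38 against ALDH22A1 at -0.58. Of 11 ubiquitin-conjugating enzymes UBC28, UBC16 and UBC29 rose, by 0.64, 0.61 and 0.40, and UBC20 and UBC27 fell. Of 8 tetraspanins, membrane organisers, TET8 rose by 0.64 and TET5 by 0.61. The iron-related factors bHLH104 and ILR3 rose by 0.64 and 0.29, 2 of 7 tested bHLH genes. Of 8 terpenoid genes 2 rose, AT1G66020 (0.85) and the cineole synthase TPS-CIN (0.76), and 2 fell, AT1G31950 (-0.42) and AT1G33750 (-1.2). PME61, a pectin methylesterase of the primary wall list, rose by 1.51, while AT4G25250 (-0.84) and AT5G51490 (-1.23) of the same list fell. Ratio covariates aside, the calls of PME61 and AT5G51490 were lost in 13 and 16 of 24 alternatives. Those of ALDH11A3 and TPS-CIN were lost in 9 of 27 each, and that of BGLU46 in 8 of 27. Most of these families were formed after values were seen, so their counts are descriptions of these arrays. The same holds for the CLE and RALF, ATG, SKU5, histone, tubulin, chaperonin and succinate dehydrogenase families above.

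Several lists gave no call or few. None of 4 tested clock genes passed, with values from 0.07 to 0.58, GI among them at 0.07. None of 4 flavonoid genes passed, DFR having the largest value, 1.07 (adjusted p = 0.078). None of 5 nitrogen, 2 phosphate, 4 sulfur, 3 glucosinolate or 9 calcium signalling genes passed. Of 10 tested auxin genes 2 rose, IAA30 by 1.07 and the lateral root factor LBD16 by 0.73, a call lost in 18 of 27 alternatives. Of 5 iron and metal genes 1 fell, AT3G13610 (-0.55). Of 5 genes of abscisic acid, cold and dehydration 1 rose, the dehydrin LTI30 by 0.41, and 1 fell, AT2G46140 (-0.45). Ratio covariates aside, the calls of LTI30 and AT2G46140 were lost in 15 and 10 of 27 alternatives. Each list is measured only in part, since 252 of its 1142 accepted genes over all 25 lists have a named probe set.

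Within the early and within the late arrays little passed the test. Between 12 and 6 h no probe set passed by limma (0% called), with 606 at an unadjusted p below 0.05. The 3 values at 12 h lay beyond the 3 at 6 h at 1840 probe sets (12%), upward at 924 (6.04%) and downward at 916 (5.99%). Between 72 and 48 h 2 passed (0.0131%), 1 upward (0.00654%) and 1 downward (0.00654%), with 1618 at an unadjusted p below 0.05. There the values did not overlap at 1868 probe sets (12.2%), upward at 830 (5.43%) and downward at 1038 (6.79%). AT4G30650 had 4951, 4020.4 and 4490.5 at 48 h and 8737, 9412 and 8322 at 72 h, a change of 0.98 ± 0.15 (SE, adjusted p = 0.029). AT1G02810 had 2391, 2994 and 3023 at 48 h and 1438, 1252 and 1464 at 72 h, a change of -1.01 ± 0.16 (SE, adjusted p = 0.029). In both the groups were apart. The count depended on single arrays, being 0 without 72 h replicate 2, 104 without 48 h replicate 3 and 28 without 72 h replicate 3. With the spread taken from all 36 root arrays, 88 passed between 72 and 48 h. These comparisons set 3 arrays against 3, where the main one set 6 against 6.

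The controls of 1 and 3 h have array numbers in another run, so their levels are described and not tested. PRK averaged 152 ± 41.5 (SD, n = 3) at 1 h and 200.4 ± 11.7 at 3 h, in the range of 6 and 12 h. PGY1 averaged 14419 ± 504 at 1 h and 13099 ± 1314 at 3 h, and its late arrays lay lower, at 10641 or less. Averaged over its 7 tested members on the log2 scale, the glycolysis list stood at 11.31 ± 0.04 (SD, n = 3) at 1 h, 11.17 ± 0.09 at 3 h, 11.08 ± 0.26 at 6 h and 11.09 ± 0.09 at 12 h. It stood at 10.61 ± 0.06 at 48 h and 10.52 ± 0.21 at 72 h, below every earlier mean. The photosynthesis list went from 8.84 ± 0.20 at 1 h to 9.26 ± 0.58 at 48 h and 9.91 ± 0.18 at 72 h. The root hair list was highest at 3 h, 10.30 ± 0.14, and lowest at 72 h, 9.17 ± 0.28, with 9.91 ± 0.17 at 48 h.

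**Figure D4:**
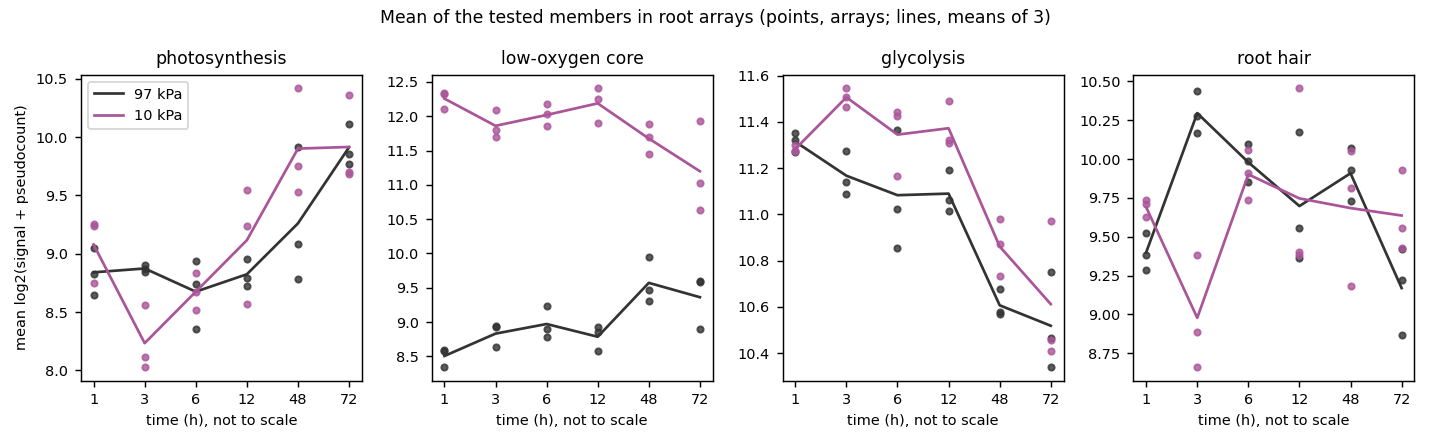
Mean log2(signal + pseudocount) of the tested members of 4 lists in root arrays at 1 to 72 h, at 97 kPa (grey) and 10 kPa (purple), with points for arrays and lines through means of 3. The 1 and 3 h controls, and nearly all of the 10 kPa arrays, have array numbers apart from those of the 6 to 72 h controls. The low-oxygen mean at 97 kPa lies below that at 10 kPa at 6 to 72 h and is highest at 48 h, 9.57 ± 0.33.

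The change with time was set against that at low pressure on 24 root arrays. The 10 kPa arrays are numbered apart from these controls, at 12462 to 12482 with 1 at 12394, and array number was not modelled. At 10 kPa 2307 of 16393 probe sets (14.1%) passed between late and early, 1072 upward (6.54%) and 1235 downward (7.53%). The late minus early change at 97 kPa differed from that at 10 kPa at 351 of 16393 probe sets (2.14%), being higher at 97 kPa at 240 (1.46%) and lower at 111 (0.677%). The count was 227 without 10 kPa 12 h replicate 3 and 233 without 97 kPa 12 h replicate 2. Of the probe sets that rose at 97 kPa, 80.9% had a positive change at 10 kPa, as had 10.3% of those that fell and 51.9% of all tested. The rise of a gene at 97 kPa and its change at 10 kPa come from separate arrays. At both pressures, however, the GAPDH 3′/5′ ratio and the photosynthesis sum had a higher median late than early. How far the shared direction goes with these was not tested.

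The low-oxygen genes were among the differences. Of the 23 tested members 11 differed, and their median change was 0.52 at 97 kPa and -0.67 at 10 kPa. AT1G33055 changed by 1.23 at 97 kPa and by -0.85 ± 0.29 (SE) at 10 kPa, a difference of 2.08 ± 0.41 (SE, adjusted p = 0.0051). AT3G29970 changed by -0.03 ± 0.30 at 10 kPa, a difference of 2.09 ± 0.42 (SE, adjusted p = 0.0052). At 10 kPa this list stood at 12.19 ± 0.25 at 12 h and 11.20 ± 0.66 at 72 h, and at 97 kPa it stood at 8.79 ± 0.18 and 9.36 ± 0.40.

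Other differences between the pressures concerned single genes. HIS1-3 rose at 97 kPa and changed by -0.21 ± 0.20 at 10 kPa, a difference of 1.42 ± 0.28 (SE, adjusted p = 0.005). ARL changed by -0.20 ± 0.13 at 10 kPa, a difference of 1.23 ± 0.18 (SE, adjusted p = 2.1e-04), and SWEET11 by -0.56 ± 0.21, a difference of 1.51 ± 0.30 (SE, adjusted p = 0.0052). DRT100 fell at 97 kPa and changed by 0.34 ± 0.16 at 10 kPa, a difference of -1.32 ± 0.22 (SE, adjusted p = 7.1e-04). Of the 13 heat and folding genes 8 differed, with medians of -0.02 at 97 kPa and -0.43 at 10 kPa. Over all tested probe sets 2.14% differed between the pressures, so the lack of a call in a short list is no result about it. None of the 16 photosynthesis probe sets differed, and their median was 1.16 at 10 kPa. PSAE-1 changed by 1.47 ± 0.25 there, with a difference of -0.08 ± 0.35 (SE, adjusted p = 0.95). None of the 7 glycolysis probe sets differed either, and their median at 10 kPa was -0.59. Not passing does not show equal changes, since on simulated data this fit recovered 36% of 2-fold differences. PGY1 changed by -0.53 ± 0.12 at 10 kPa, with a difference of -0.09 ± 0.16 (SE, adjusted p = 0.86). The late 10 kPa roots had photosynthesis sums of 17688 to 31853 and GAPDH ratios of 92.2 to 433, against 7852 to 15987 and 58.9 to 138 early.

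Shoots were compared in the same way on 24 arrays at 97 kPa. In the 12 shoot arrays 591 of 16872 probe sets (3.5%) passed between late and early, 400 upward (2.37%) and 191 downward (1.13%). The change in roots differed from that in shoots at 1596 of 16872 probe sets (9.46%), higher in roots at 699 (4.14%) and lower in roots at 897 (5.32%). With the mean 3′/5′ ratio as covariate 137 differed. The root and shoot arrays of 6 and 12 h and 1 pair of 72 h share tube labels, and so may share plants. The same labels also recur across pressures, so they do not settle this. With tube as a random block (estimated correlation 0.0591) 1687 differed. Of the 16 photosynthesis probe sets 12 differed, and their median change in shoots was -0.16. PRK changed by -0.18 ± 0.18 (SE) in shoots, a difference of 1.55 ± 0.25 (SE, adjusted p = 3.6e-04), and ATPC1 by -0.14 ± 0.09, a difference of 0.91 ± 0.12 (SE, adjusted p = 1.0e-04). Of the 7 glycolysis probe sets 5 differed, with a shoot median of 0.23, and AT1G20950 changed by 0.43 ± 0.13 there, a difference of -1.35 ± 0.18 (SE, adjusted p = 9.3e-05).

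Several growth genes that fell in roots changed differently in shoots. TUB1 changed by 0.87 ± 0.19 in shoots, where it rose (adjusted p = 0.01), a difference of -1.81 ± 0.27 (SE, adjusted p = 1.8e-04). Of the 7 tubulins 4 differed and of the 6 histones 4. Y14 changed by 0.46 ± 0.14, a difference of -1.38 ± 0.20 (SE, adjusted p = 1.2e-04), and PGY1 by -0.05 ± 0.09, a difference of -0.57 ± 0.12 (SE, adjusted p = 0.0036). PYK10 fell in shoots, with a change of -1.26 ± 0.19, and its difference was 1.71 ± 0.27 (SE, adjusted p = 2.4e-04). For the low-oxygen genes the median change in shoots was 1.24, 4 of 23 differed in their change, and AT1G33055 changed by 2.10 ± 0.33 in shoots, with a difference of -0.86 ± 0.46 (SE, adjusted p = 0.27). ARL and STR18 also rose in shoots, by 0.94 ± 0.17 and 0.73 ± 0.16, and their differences of 0.09 ± 0.24 (SE, adjusted p = 0.88) and 0.05 ± 0.23 (SE, adjusted p = 0.94) did not pass.

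**Figure D5:**
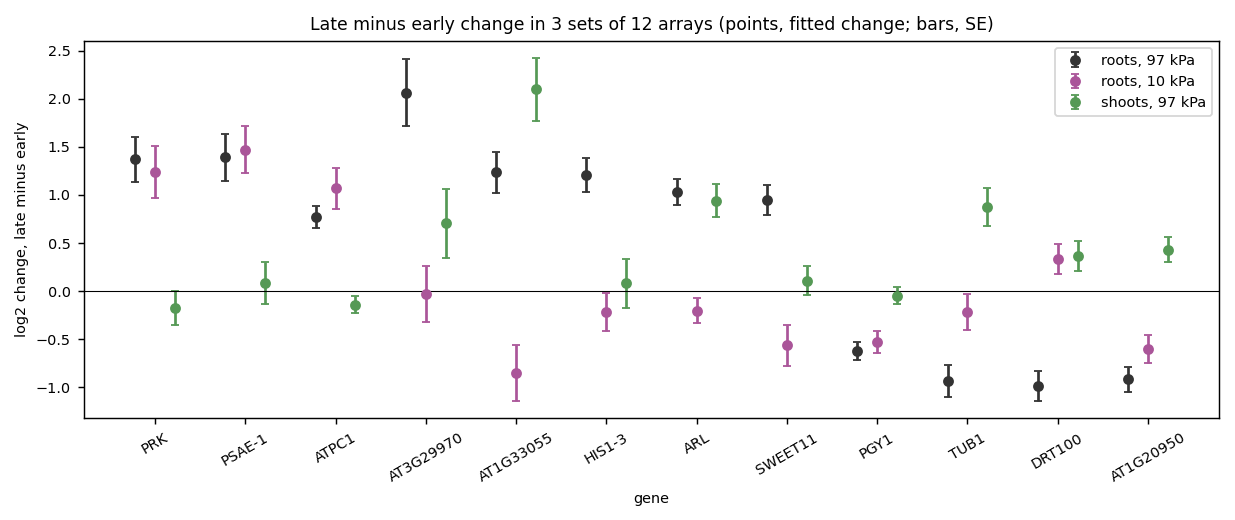
Fitted log2 change from early to late of 12 genes, with SE, in roots at 97 kPa (grey), roots at 10 kPa (purple) and shoots at 97 kPa (green), 12 arrays each. PRK and PSAE-1 lie above 1 in both sets of roots and at -0.18 and 0.08 in shoots, while AT1G33055 lies above 1 in control roots and shoots and at -0.85 in roots at 10 kPa.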

How the data were processed

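RNA of the 72 samples was labelled by a 3′ in vitro transcription kit and hybridised to ATH1 arrays of 22810 probe sets, per the labels' protocols. The deposited values are linear MAS5 signal intensities. Per the submitters' processing notes, the authors computed them in Affymetrix Expression Console. The trimmed mean of every array is 500. The number of arrays limits the precision, since such intensities carry no counting depth. Here the 64 control probe sets were left out and log2(intensity + 8.90) was used, the pseudocount being the 10th percentile of all values, so changes of dim genes are understated. A probe set was tested if it reached the 40th percentile of an array in at least 3 arrays. limma 3.58.1 (R 4.3.3) was fitted with lmFit and trended eBayes, with p-values adjusted by Benjamini-Hochberg over all tested probe sets. The 12 control root arrays formed 4 groups, with 8 residual degrees of freedom. Differences between pressures and between tissues were interaction contrasts in fits of 24 arrays each.

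Genes were named from the platform table, in which 13513 probe sets name 1 gene and 503 several, and 13436 matched the RefSeq gene table. Only probe sets with 1 gene were named. The naming rule took, from called genes with no overlap and a mean signal of at least 100, the 15 changing most in each direction, the 5 largest each way in the other comparisons, and up to 4 members of each list. The text names further list members, and genes picked out after their values were seen, among them STOMAGEN, TROL, LIL3:2, CYTC6A, STZ, ARL, FACT, Y14, PRH75, EIF4A-2, SQN, TPLATE, MPPBETA, CYTC-2, IDH-V, GR1 and DRT100. The members and the lists were chosen with earlier results of these data known, and 15 families were formed from gene symbols after values were seen.

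On simulated data of the same arrays with 200 changed probe sets, the late against early fit recovered 58% of 2-fold and 82% of 4-fold changes with 12 false calls. The simulated noise was independent between arrays, had the same spread early and late, and held no shift of the 3′/5′ ratios. These numbers therefore do not cover errors from the wider late spread or from that shift. Samples sharing a replicate number did not deviate together (correlations of -0.0767 to 0.07 over 18 pairs), so the numbers were not used as a block. Alternatives covered normalization, pseudocount, filter, variance trend, array weights, a replicate block, left-out arrays and times, and 3′/5′ ratios as covariates, of which the ratios of single control genes were added after seeing the data. Promoter sequences were not analysed here.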

Additional observations from a re-analysis of the deposited data

Results flagged for a closer look

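The change from early to late differed between control roots and roots at 10 kPa, by the interaction test in limma, at 351 probe sets. It was higher in control roots for AT5G26200 (2.49 ± 0.61 (SE, adjusted p = 0.027) on the log2 scale). For AT5G07570 the difference was 2.39 ± 0.42 (SE, adjusted p = 0.0016) and for AT1G19020 2.33 ± 0.25 (SE, adjusted p = 8.8e-06), and these genes fell at 10 kPa. AT2G41730, a low-oxygen gene, differed by 2.96 ± 0.38 (SE, adjusted p = 4.1e-05), with a change of -4.01 ± 0.27 at 10 kPa. AT1G63540 differed by 2.95 ± 0.72 (SE, adjusted p = 0.025) and was too dim for the test in control roots alone, with means of 13.8 early and 101 late. The change was lower in control roots for AT1G54020 (-3.20 ± 0.75 (SE, adjusted p = 0.019)), AT3G61930 (-2.26 ± 0.50 (SE, adjusted p = 0.013)) and AT5G23840 (-2.08 ± 0.51 (SE, adjusted p = 0.028)). It was also lower for AT5G19100 (-1.81 ± 0.26 (SE, adjusted p = 1.9e-04)), which fell at 97 kPa and rose at 10 kPa, and for AT4G11190 (-1.69 ± 0.27 (SE, adjusted p = 4.4e-04)), which rose at 10 kPa. Of the genes the text describes, AT1G33055 (2.08), AT3G29970 (2.09), SWEET11 (1.51), HIS1-3 (1.42), ARL (1.23) and DRT100 (-1.32) passed the same test.

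Between roots and shoots at 97 kPa the change differed at 1596 probe sets. It was higher in roots for AT2G17940 (2.64 ± 0.73 (SE, adjusted p = 0.021)), AT3G62960 (2.90 ± 0.68 (SE, adjusted p = 0.0072)), AT5G61570 (2.43 ± 0.70 (SE, adjusted p = 0.027)) and AT1G63540 (2.77 ± 0.70 (SE, adjusted p = 0.012)). OCT1, an organic cation transporter, differed by 2.62 ± 0.78 (SE, adjusted p = 0.034), with 16.9, 119 and 286 early and 149.9, 237 and 513 late in roots. It was lower in roots for AT2G20870 (-3.44 ± 0.66 (SE, adjusted p = 0.0016)), which rose in shoots, and for AT5G54370 (-3.17 ± 0.42 (SE, adjusted p = 8.7e-05)), which fell in roots and rose in shoots. It was lower as well for AT3G14510 (-3.31 ± 0.86 (SE, adjusted p = 0.015)), AT5G56980 (-3.09 ± 0.72 (SE, adjusted p = 0.0069)) and TRM25 (-2.71 ± 0.59 (SE, adjusted p = 0.0038)). AT1G63540, AT2G20870 and AT5G56980 were too dim for the test in control roots alone. They passed the filter only with the shoot arrays in the fit, so their root changes rest on dim signals. The same test passed for PRK (1.55), ATPC1 (0.91), PYK10 (1.71), AT1G20950 (-1.35), TUB1 (-1.81), Y14 (-1.38) and PGY1 (-0.57). With 3 arrays a group no single array was tested as an outlier.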

How the results depend on the processing

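The late against early count stayed within 1.5 times of 2880 under quantile normalization, other pseudocounts and filters, no variance trend, array weights, the replicate block and the actin ratio. Leaving out single arrays gave 2205 to 3018 calls (1059 to 1417 higher, 1146 to 1601 lower). It was 1577 (763 higher, 814 lower) without the 6 h arrays, 1557 (784, 773) without the 12 h arrays, 1682 (680 higher) without the 72 h arrays, where AT4G30650 reversed to -0.15, and 369 (223, 146) at a 2-fold minimum. With the mean 3′/5′ ratio as covariate it was 1 (0 higher, 1 lower), with GAPDH alone 238 (102, 136) and with ubiquitin alone 1572 (708, 864). Of 194 called named results 184 lost their call with the mean ratio and all 194 kept their sign. Ratio covariates aside, 109 of the 194 lost their call in at least 1 alternative and 85 in none, and the calls lost most often were AT5G19940 (19 of 26), IDH-V and the mitochondrial nad9 (19 of 27), LBD16 (18) and AT1G77750 (17). Between 12 and 6 h array weights gave 13 calls (9, 4), leaving out the 72 h array of the other run gave 1 (1 higher), and single arrays left out gave 0 to 1. Between 72 and 48 h the count was 0 (0, 0) with no trend, with array weights, with the replicate block and without the 72 h array of the other run, 5 (0, 5) with the mean ratio and 88 (46, 42) with all 36 root arrays. Single arrays left out gave 0 to 104 (0 to 86 higher, 0 to 26 lower). For the pressure difference no trend gave 197 (141, 56), array weights 191 lower, and single arrays left out 227 to 438 (162 to 286 higher, 65 to 159 lower). For the tissue difference the mean ratio gave 137 (71, 66) and single arrays left out 1270 to 1814 (545 to 771 higher, 704 to 1056 lower). With the replicate block, late against early gave 2668 calls (1278 higher, 1390 lower), of which 2621 were among the 2880, 12 against 6 h gave 0, the pressure difference 399 (263, 136) and the tissue difference 1649 (716, 933). Causes of these moves were not tested.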
